A study of Mus musculus with 12 samples.

Results

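The genes described here encode the voltage-gated sodium and calcium channels of the mouse. They were chosen by symbol: every gene named Scn with a number and a final a or b, and every gene whose symbol starts with Cacna, Cacnb or Cacng. The rule matched 40 of the 24525 genes in the count tables, of which 14 are sodium channel genes and 26 are calcium channel genes. Of these, 20 encode the pore-forming subunits (10 sodium channel α genes and 10 calcium channel α1 genes) and 20 encode auxiliary subunits. The rule uses no measured value.

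RNA was taken from neural stem/progenitor cells (NSPCs) grown as free-floating neurospheres from the brains of E14.5 embryos of the C57BL/6 strain, at passage 1, in medium with the growth factors EGF and bFGF. One group was wild type and the other was a knockout of Ythdf2 (Ythdf2-/-), the gene of a cytoplasmic protein that binds mRNA carrying N6-methyladenosine (m6A) and promotes its decay. The deleted allele came from a floxed allele, with LoxP sites around the 5′ UTR and exon 1, after a cross to mice that express Cre in all tissues, so the deletion was not limited to a cell type and the rest of the gene remained. Each genotype had 3 input libraries, which are mRNA libraries made without m6A immunoprecipitation. The question for these genes was whether their mRNA levels differed between the genotypes, and whether pore-forming and auxiliary subunits differed in this.

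A voltage-gated sodium or calcium channel is built around one large α protein, in which 4 homologous repeats surround the pore and sense the voltage. Sodium channels carry the rising phase of action potentials, and calcium channels turn a voltage change into calcium entry that drives transmitter release, gene expression and contraction. Auxiliary subunits set how much channel reaches the membrane and how it gates: β subunits accompany sodium channels, and β and α2δ subunits accompany the high-voltage-activated Cav1 and Cav2 channels. The γ family is mixed, since most of its neural members are TARPs, which escort AMPA-type glutamate receptors. In progenitors these channels are known for calcium signals and background currents rather than for firing.

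The pore sequences show what separates the families. In sodium channels and calcium channels alike, 1 residue of each repeat lines the narrowest part of the pore, and the residue of the third repeat differs between the ions carried. Its codon was found once in each of the 20 pore-forming genes, in the coding sequence of a GENCODE M21 transcript (GRCm38). It encoded lysine in 9 of the 10 sodium channel α genes, glutamate in all 4 Cav1 and all 3 Cav2 genes, and aspartate in all 3 Cav3 genes. The exception was Scn7a, with asparagine, whose protein (Nax) is a sodium-level sensor that is not opened by voltage. The lines below give 30 bases of the coding strand, 5′ to 3′, for the sodium channel gene with the highest level here, for Scn7a, and for the leading gene of Cav1, Cav2 and Cav3, with the codon of that residue in capitals.
Scn8a: gtggcaaccttcAAAggctggatggacatc
Scn7a: gtggcaacatttAATggatggatcagtatt
Cacna1c: gtctccaccttcGAAgggtggccagagctg
Cacna1a: gtgtccacaggaGAGggctggccacaggtc
Cacna1h: ctgtcatccaagGATggctgggtaaacatc
The Scn8a bases lie in exons 22 and 23 of 27 (chr15:101029860-101031736, plus strand, with the intron between them in this range). Those of Scn7a lie in exons 20 and 21 of 25 (chr2:66683294-66684017, minus strand). The Cacna1c bases join exons 27 and 28 of 48 (chr6:118654452-118656138, minus strand), and those of Cacna1a join exons 27 and 28 of 47 (chr8:84581326-84583562, plus strand). In Cacna1h they lie within exon 24 of 35 (chr17:25383493-25383522, minus strand).

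The libraries held 11029827 to 13185778 counted reads. A count of 0 allowed a level of up to 3 counts, which corresponds to 0.222 to 0.274 CPM (counts per 1000000 reads of the library), and intervals of this kind cover counting error only. Ythdf2 itself was counted at 840, 961 and 999 reads in the wild-type libraries and at 137, 198 and 138 reads in the Ythdf2-/- libraries. Its mean was 78.9 ± 10.9 CPM (SD, n = 3) against 12.5 ± 1.91 CPM, a log2 fold change of -2.66 (SE 0.183), with adjusted p = 0.0547 by edgeR's quasi-likelihood test. Progenitor markers were present in every library (the summed level of 8 genes was 3410 to 6510 CPM), whereas the microglial genes C1qa and C1qb and the endothelial gene Cldn5 were at 0 in all 6. Other microglial and endothelial markers had some reads, such as Cx3cr1 with 3 to 12 and Kdr with 8 to 18 per library. Wild-type replicate 3 stood apart: its summed level of 14 oligodendrocyte lineage markers was 6057 CPM against 1853 to 2264 CPM in the other libraries, that of 14 neuron markers was 2679 against 1535 to 1942 CPM, that of 8 astroglia markers was 9630 against 2881 to 6909 CPM, and that of the progenitor markers was the lowest. The low progenitor sum came from Nes, Vim and Fabp7, whereas Sox2, Pax6, Hes1, Hes5 and Prom1 were each at their highest in this library. Reads on Y-linked genes numbered 1111, 1638 and 1 in the wild-type libraries and 0, 1 and 2147 in the Ythdf2-/- libraries. A fit with a term for the presence of Y-linked reads is among the alternatives below. The part of the marker differences in the channel values was not tested. In bulk RNA, fewer cells of a type and less RNA per cell cannot be told apart.

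Of the 40 genes, 27 had enough reads to be tested (13 pore-forming and 14 auxiliary), and 26 had a mean of at least 1 CPM over the 6 libraries. The plot of CPM by library gives 24 of these 26 genes. The 13 genes below the filter never exceeded 15 counts in a library. They were the sodium channel genes Scn4a (skeletal muscle), Scn9a, Scn10a and Scn11a (sensory neurons) and Scn4b, the calcium channel genes Cacna1s (skeletal muscle), Cacna1f (retina), Cacna1i and Cacna2d4, and the γ genes Cacng1 (skeletal muscle), Cacng2, Cacng3 and Cacng6. Scn10a had no read in any library. The largest of these counts was for Cacng6 in Ythdf2-/- replicate 3, where the other libraries had 0 to 7. The last of the tested genes, Scn1a, had a mean of 0.912 CPM, with 6 to 18 reads per library.

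**Figure D1:**
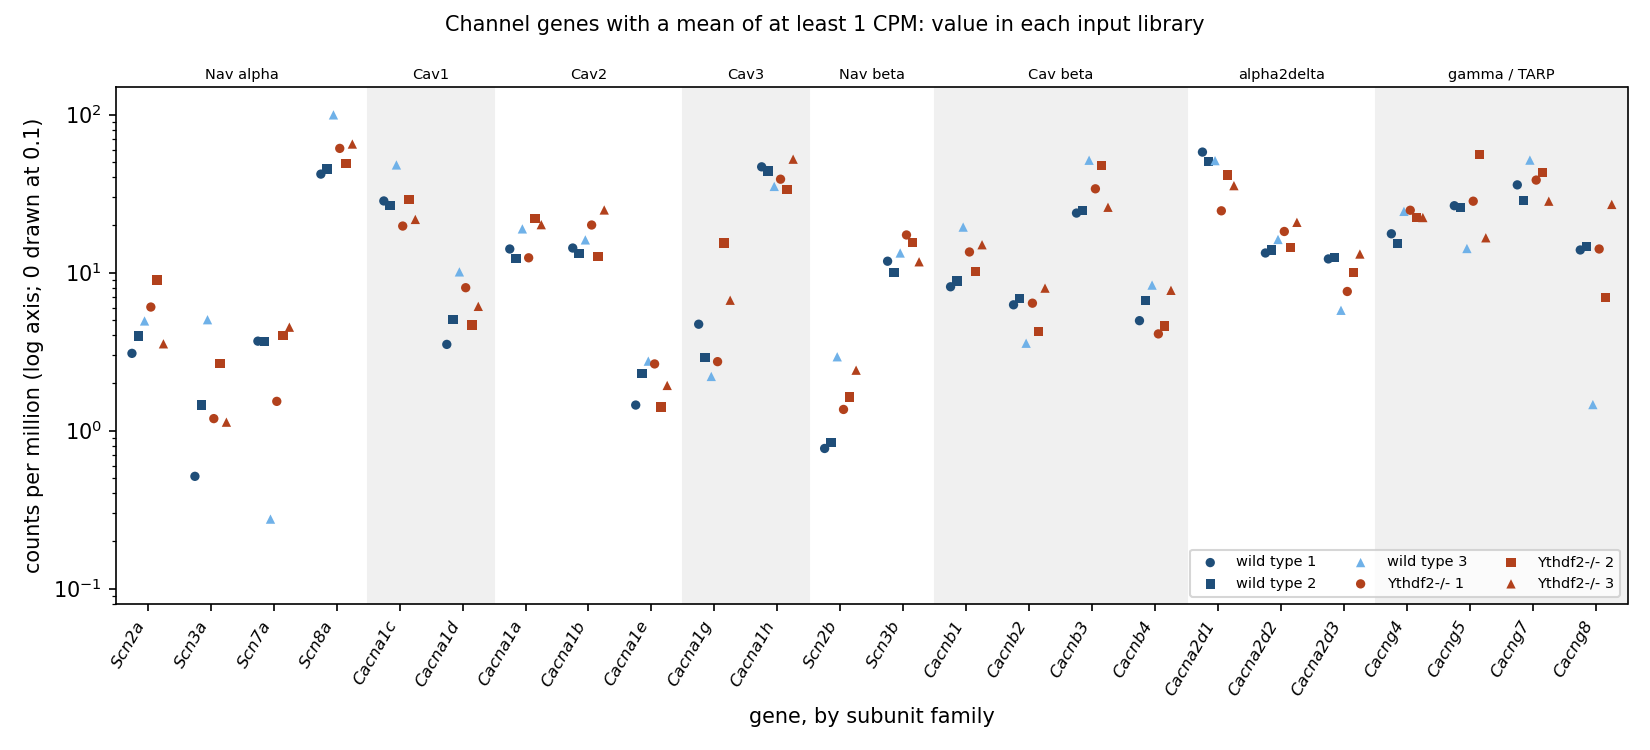
CPM (vertical log axis) of 24 of the 26 channel genes with a mean of at least 1 CPM, grouped by subunit family along the horizontal axis. Each symbol is 1 input library, blue for wild type and red for Ythdf2-/-. Wild-type replicate 3 (light blue triangles) lies at one end for many genes, such as Scn8a at 99.6 and Cacng8 at 1.46 CPM, and Cacna2d1 is the gene whose blue and red symbols do not overlap.

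No channel gene passed an adjusted p of 0.05 by edgeR's quasi-likelihood test (0 of 27), and neither did any other gene (0.0% of 13112). At an unadjusted p under 0.05 the count was 1 of 27 channel genes, Cacna2d1, against 3.63% of all genes tested (1.81% higher and 1.82% lower in Ythdf2-/-). DESeq2 also gave 0 channel genes at an adjusted p under 0.05 (0.236% of all genes) and 2 at an unadjusted p (4.27% of all genes), Cacna2d1 as lower (2.36% of all genes) and Cacna1g as higher (1.91%). The groups did not overlap for 1 of the 27 channel genes, against 10.2% of all genes tested. None of the 27 had all Ythdf2-/- libraries above all wild-type libraries, an order that 5.24% of all genes had. The median log2 fold change (Ythdf2-/- over wild type) was 0.15 over the 27 channel genes and -0.01 over all genes, with 18 channel genes above 0 and 9 below. For the 13 pore-forming genes the median was 0.02, with 7 above 0 and 6 below. For the 14 auxiliary genes it was 0.15, with 11 above 0 and 3 below. These tallies moved when 1 library was left out, from 8 above and 6 below to 10 above and 4 below for the auxiliary genes, and from 6 above and 7 below to 10 above and 3 below for the pore-forming genes. By ion, the median was 0.26 over 9 sodium channel genes and 0.10 over 18 calcium channel genes. Without Ythdf2-/- replicate 3 these were -0.00 and 0.05, and without wild-type replicate 3 they were 0.42 and 0.27.

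Without wild-type replicate 3, the medians were 0.36 over all 27 channel genes, 0.42 over the pore-forming and 0.27 over the auxiliary genes, against 0.01 over all genes. In that fit 5 channel genes had an unadjusted p under 0.05 by edgeR's quasi-likelihood test, 4 of them higher in Ythdf2-/- (Scn8a, Scn2b, Cacnb1 and Cacng4) and 1 lower (Cacna2d1). The background was higher too, at 16.6% of all genes (8.03% higher and 8.58% lower). No channel gene passed an adjusted p of 0.05 in that fit, and 2 of all genes did (0.0151%). The fold change of 10 of the 27 channel genes changed sign when this library was left out, as did 30.7% of all genes. This library was the highest or the lowest of the 6 for 19 of the 27 channel genes (70.4%) and for 68.3% of all genes. It was the highest for 11 of the 27, among them Scn8a, Cacna1c and Cacnb3, and the lowest for 8, among them Scn7a, Cacna1g and Cacng8. The map of deviations draws 24 of these genes.

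**Figure D2:**
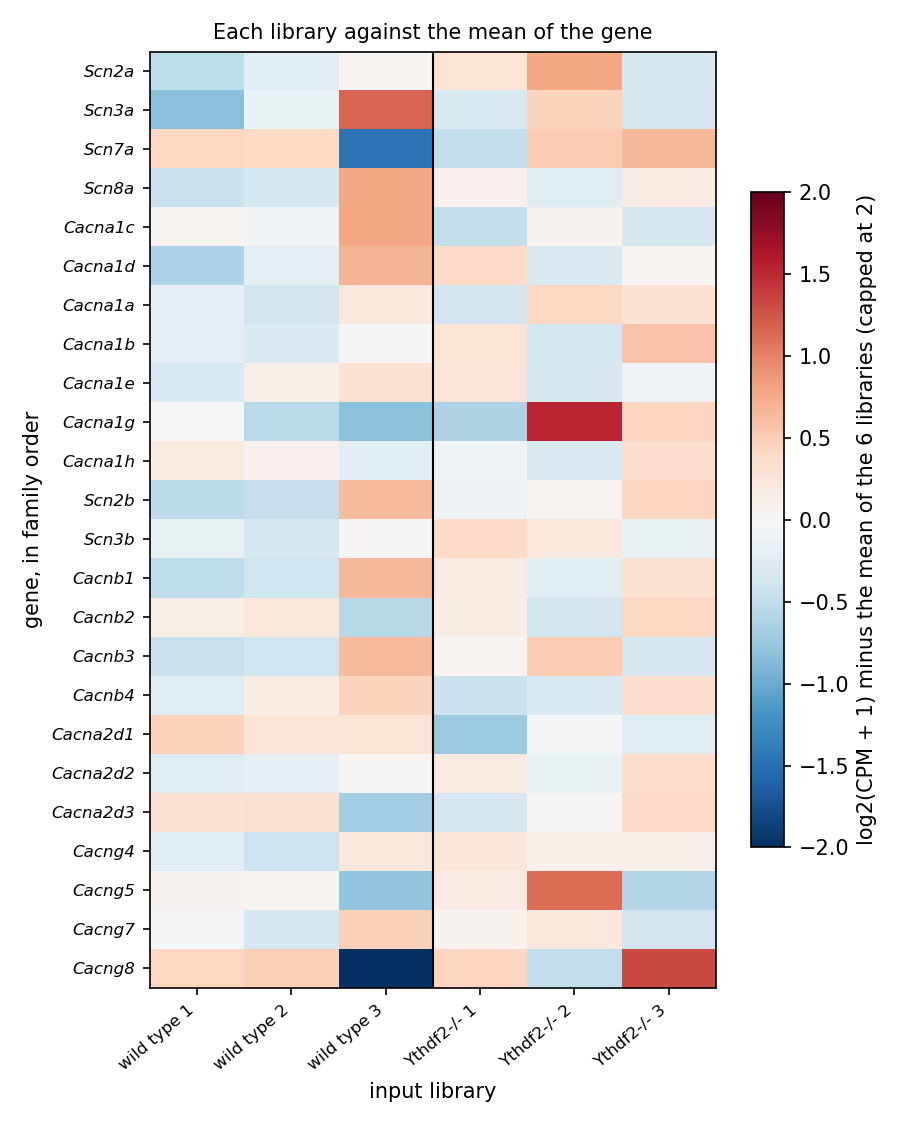
Deviation of each input library (columns) from the mean of the gene over the 6 libraries, on the log2(CPM + 1) scale, for 24 of the 26 channel genes with a mean of at least 1 CPM (rows). Red is above and blue below the mean, and the black line parts the genotypes. The strongest colours stand in the wild-type 3 column (Cacng8 and Scn7a low, Scn3a high) and, outside it, in Ythdf2-/- replicate 2 for Cacna1g and Cacng5 and in Ythdf2-/- replicate 3 for Cacng8.

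**Figure D3:**
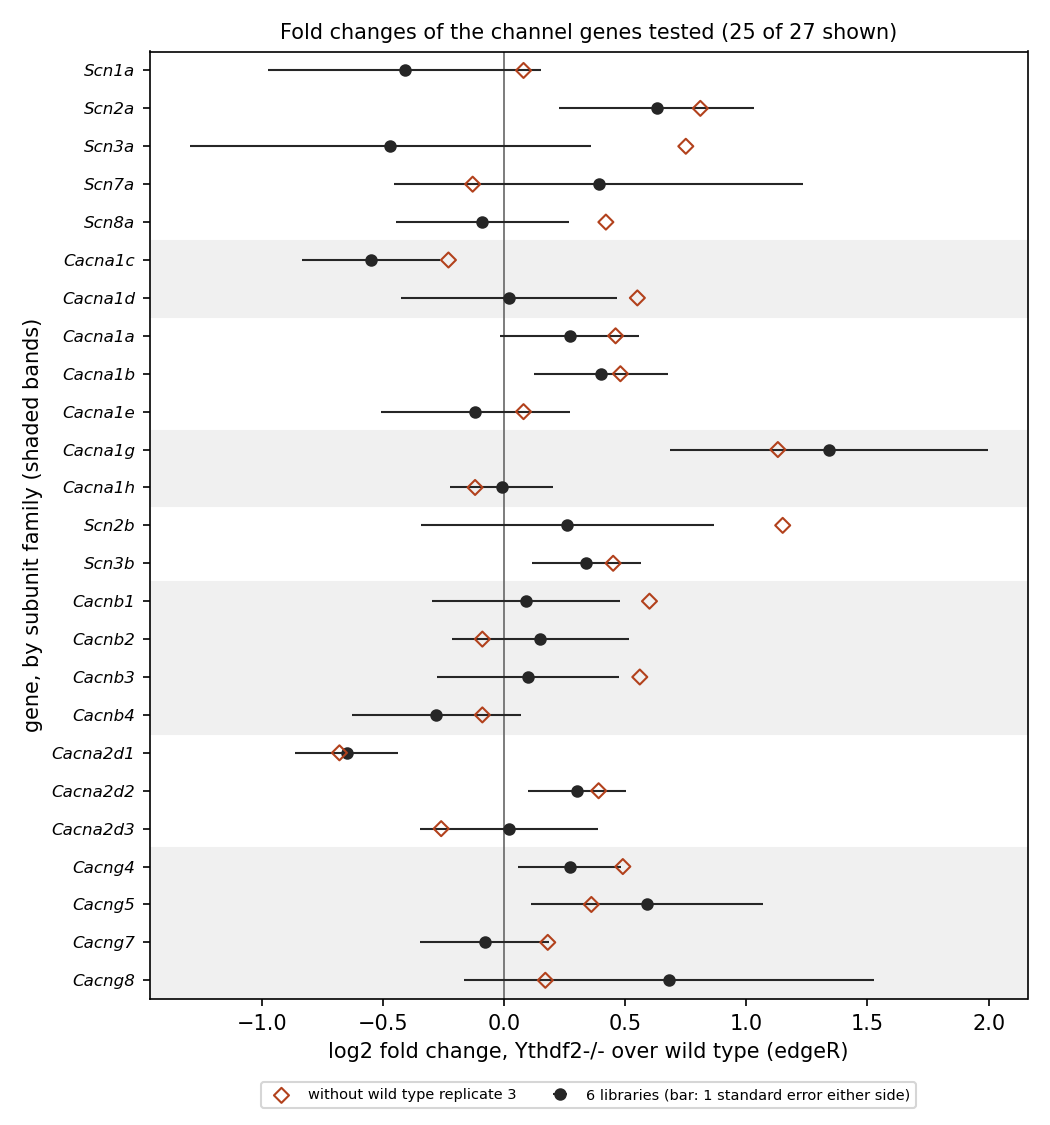
Log2 fold change of Ythdf2-/- over wild type (horizontal axis) for 25 of the 27 channel genes tested, in family order. Black points and bars are the estimate and 1 standard error from all 6 libraries, and red diamonds are the estimate without wild-type replicate 3. Cacna2d1 keeps about the same value in both (-0.65 and -0.68), whereas Scn8a moves from -0.09 to 0.42 and Scn3a from -0.47 to 0.75.

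Among the sodium channel α genes, Scn8a, which encodes the Nav1.6 channel of nodes and axon initial segments, held most of the signal. It was counted at 42.0, 45.2 and 99.6 CPM in wild-type replicates 1, 2 and 3 and at 61.1, 48.8 and 65.1 CPM in the Ythdf2-/- replicates. The 3 Ythdf2-/- libraries all lay above wild-type replicates 1 and 2 and below replicate 3, so the groups overlapped. The log2 fold change was -0.09 (SE 0.358) with all libraries and 0.42 (SE 0.146, unadjusted p = 0.0276, adjusted p = 0.252 by edgeR's quasi-likelihood test) without replicate 3. On a per-length scale (reads per kilobase of the gene length in the deposited tables), Scn8a made up 66.9 to 86.2% of the sodium channel α signal. The sodium channel α genes as a class summed to 73.7 ± 33.2 CPM in wild type (SD, n = 3) and 72.4 ± 5.71 CPM in Ythdf2-/-, and the wild-type spread came from 112.0 CPM in replicate 3 against 52.5 and 56.6 CPM.

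The other sodium channel α genes were low. Scn2a (Nav1.2, an early channel of developing axons) was at 3.08, 3.97 and 4.94 CPM in wild type and 6.05, 8.96 and 3.54 CPM in Ythdf2-/-. Its mean was 4.0 ± 0.931 against 6.18 ± 2.71 CPM, and Ythdf2-/- replicate 2 was the highest library, while replicate 3 lay within the wild-type range. Scn3a (Nav1.3, the embryonic brain channel) was at 0.513, 1.45 and 5.03 CPM against 1.19, 2.67 and 1.13 CPM. Its highest library was wild-type replicate 3, and the Ythdf2-/- values lay within the wild-type range. Scn7a was at 3.68, 3.66 and 0.275 CPM against 1.53, 4.0 and 4.51 CPM. Wild-type replicate 3 was far below the rest, with 3 reads. The 5 clustered genes on chromosome 2 (Scn3a, Scn2a, Scn1a, Scn9a and Scn7a, between 65457118 and 66784910 in GRCm38.p6) were not all detected, since Scn9a had 2 reads in 1 library and none elsewhere.

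The L-type (Cav1) channels couple depolarisation to transcription in neurons. Cacna1c (Cav1.2) was at 28.4, 26.6 and 48.0 CPM in wild type and 19.7, 29.1 and 21.7 CPM in Ythdf2-/-. The groups overlapped through Ythdf2-/- replicate 2, and the log2 fold change was -0.55 (SE 0.285, adjusted p = 0.999 by edgeR's quasi-likelihood test), or -0.23 without wild-type replicate 3. Cacna1d (Cav1.3, which opens at more negative voltages) was at 3.51, 5.04 and 10.1 CPM against 8.02, 4.66 and 6.11 CPM, and overlapped as well. Per length, Cacna1c held 61.8 to 83.9% of the Cav1 signal. Of the exon bases of Cacna1d, 5.62% are shared with the opposite-strand gene Chdh.

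The Cav2 channels trigger transmitter release at synapses. Cacna1a (Cav2.1, the P/Q-type channel) was at 14.1, 12.3 and 18.9 CPM in wild type and 12.4, 22.0 and 20.1 CPM in Ythdf2-/-. Cacna1b (Cav2.2, N-type) was at 14.3, 13.2 and 16.1 CPM against 20.0, 12.6 and 24.9 CPM. In both, 2 Ythdf2-/- libraries were above all wild-type ones and the remaining one was within or below them (replicate 1 for Cacna1a, replicate 2 for Cacna1b). The log2 fold changes were 0.27 (SE 0.286) and 0.40 (SE 0.276), each with adjusted p = 0.999 by edgeR's quasi-likelihood test. When 1 library was left out they ranged from 0.12 to 0.49 for Cacna1a and from 0.17 to 0.64 for Cacna1b. Per length, Cacna1a held 41.1 to 66.7% and Cacna1b 30.7 to 53.5% of the Cav2 signal. Cacna1b led in Ythdf2-/- replicate 1 and Cacna1a in the other libraries, by 66.7 to 30.7% in Ythdf2-/- replicate 2 and by 48.7 to 48.4% in replicate 3. Cacna1e (Cav2.3, R-type) was low, at 1.45, 2.29 and 2.75 CPM against 2.64, 1.41 and 1.93 CPM.

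T-type (Cav3) channels open near the resting potential. Cacna1h (Cav3.2) was at 46.7, 43.9 and 35.1 CPM in wild type and 39.0, 33.5 and 52.2 CPM in Ythdf2-/-. Its means were almost the same (41.9 ± 6.09 and 41.6 ± 9.64 CPM), and the log2 fold change was -0.01 (SE 0.212). Cacna1g (Cav3.1) was at 4.71, 2.90 and 2.2 CPM against 2.73, 15.4 and 6.68 CPM, with Ythdf2-/- replicate 2 far above all others and replicate 1 within the wild-type range. Its log2 fold change of 1.34 (SE 0.656, adjusted p = 0.999 by edgeR's quasi-likelihood test) was the largest of the 27 in size. It was 0.53 (SE 0.548) without Ythdf2-/- replicate 2 and 1.76 (SE 0.522, unadjusted p = 0.0181, adjusted p = 1.0) without Ythdf2-/- replicate 1. Cacna1h held 88.5 to 93.6% of the Cav3 signal per length in 5 libraries and 68.3% in Ythdf2-/- replicate 2.

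The sodium channel β subunits are cell adhesion proteins of the immunoglobulin fold that also tune gating. Scn3b was at 11.8, 10.0 and 13.3 CPM in wild type and 17.3, 15.5 and 11.7 CPM in Ythdf2-/-. It overlapped through Ythdf2-/- replicate 3. Scn2b was at 0.770, 0.839 and 2.93 CPM against 1.36, 1.63 and 2.41 CPM, where every Ythdf2-/- library lay above wild-type replicates 1 and 2 and below replicate 3. Without replicate 3 its log2 fold change was 1.15 (SE 0.418, unadjusted p = 0.0317, adjusted p = 0.260 by edgeR's quasi-likelihood test).

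The make-up of sodium channel reads in wild-type replicate 3 differed from the rest. The α genes took 84.2% of the sodium channel reads there and 48.0 to 63.0% in the other 5 libraries. Per length, Scn3b held 9.04 to 19.3% of the sodium channel β signal in those 5 libraries and 46.5% in wild-type replicate 3.

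Calcium channel β subunits are cytoplasmic proteins that bind α1 and bring it to the membrane. Cacnb3, the leading β gene per length (50.6 to 74.7% of the β signal), was at 23.8, 24.8 and 51.4 CPM in wild type and 33.9, 47.5 and 25.9 CPM in Ythdf2-/-. Cacnb1 was at 8.13, 8.85 and 19.4 CPM against 13.5, 10.2 and 15 CPM. For both genes all Ythdf2-/- libraries were above wild-type replicates 1 and 2 and below replicate 3. The log2 fold changes were 0.10 (SE 0.376) and 0.09 (SE 0.387) with all libraries. Without replicate 3 they were 0.56 (SE 0.256, unadjusted p = 0.0703) and 0.60 (SE 0.219, unadjusted p = 0.0319), with adjusted p = 0.333 and 0.260 by edgeR's quasi-likelihood test. The β genes as a class summed to 43.1, 47.2 and 82.7 CPM in wild type and 57.9, 66.6 and 56.6 CPM in Ythdf2-/-.

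Cacnb2 was at 6.25, 6.87 and 3.57 CPM in wild type and 6.40, 4.22 and 7.97 CPM in Ythdf2-/-. Cacnb4 was at 4.96, 6.64 and 8.33 CPM against 4.09, 4.59 and 7.72 CPM. The groups overlapped for both. Cacnb4 is uncertain, because 40.7% of its exon bases (3530 bp) are shared with the opposite-strand gene A430018G15Rik, and the strand setting of the counting is not given in the sources used here.

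The α2δ subunits are extracellular proteins that raise the amount of calcium channel at the membrane and at release sites, and Cacna2d1 and Cacna2d2 encode the binding sites of gabapentin. They hold a metal-ion-dependent adhesion site, in which an aspartate and a pair of serines coordinate the ion. The codons of these 3 residues are in capitals for Cacna2d1, whose groups did not overlap, and for Cacna2d2.
Cacna2d1: ctcattctggtgGACgtgAGTggaAGTgtg
Cacna2d2: gtcatcattgtgGATgtgAGTggcAGCgtg
The bases of Cacna2d1 join exons 9 and 10 of 39 (chr5:16266721-16267388, GRCm38, plus strand), and those of Cacna2d2 join exons 9 and 10 of 38 (chr9:107513088-107513245, plus strand). All 4 α2δ genes encode the aspartate and both serines. Cacna2d1 spans chr5:15934264-16374511 in GRCm38.p6, with exons of 7493 bp in all.

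Cacna2d1 was at 57.9, 50.6 and 51.1 CPM in wild type and 24.6, 41.4 and 35.5 CPM in Ythdf2-/-. All 3 wild-type libraries were above all 3 Ythdf2-/- libraries, and no other channel gene tested had groups that did not overlap (645 of 13112 genes, 4.92%, did not overlap with Ythdf2-/- the lower). The means were 53.2 ± 4.06 and 33.8 ± 8.54 CPM (SD, n = 3), a log2 fold change of -0.65 (SE 0.212). The unadjusted p was 0.0204 and the adjusted p was 0.999 by edgeR's quasi-likelihood test, and the adjusted p ranged from 0.0395 to 1.0 over the alternatives. An exact permutation test of 3 against 3 libraries cannot go below 0.1. The log2 fold change ranged from -0.81 to -0.46 when 1 library was left out. The unadjusted p was 0.0631 without wild-type replicate 1 and between 0.0125 and 0.0470 without any other library.

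**Figure D4:**
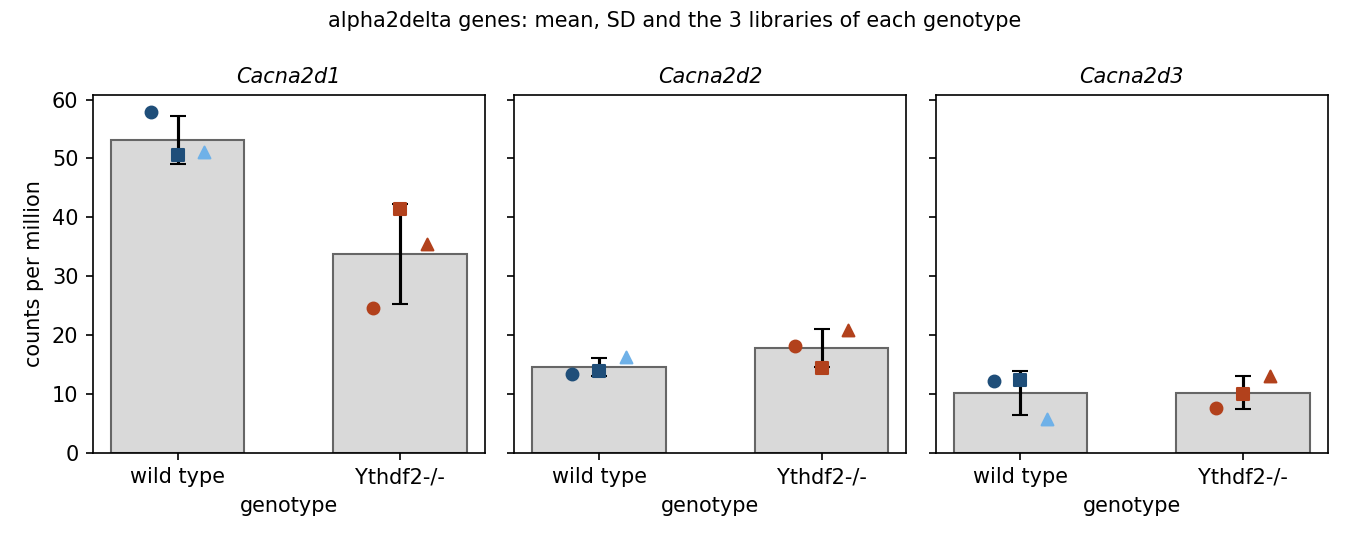
CPM of the 3 α2δ genes tested, by genotype. Bars are means of 3 libraries, error bars are SD, and each symbol is 1 library (circle, square and triangle for replicates 1, 2 and 3). Cacna2d1 is at 53.2 in wild type and 33.8 in Ythdf2-/- with no overlap, while the libraries of Cacna2d2 and Cacna2d3 overlap.

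The other α2δ genes tested did not share this order. Cacna2d2 was at 13.3, 13.9 and 16.2 CPM in wild type and 18.2, 14.4 and 20.8 CPM in Ythdf2-/-, a log2 fold change of 0.30 (SE 0.203). Cacna2d3 was at 12.2, 12.4 and 5.77 CPM against 7.59, 10.0 and 13.1 CPM, a log2 fold change of 0.02 (SE 0.369). Both overlapped between the genotypes. Per length, Cacna2d1 held 57.8, 53.6 and 60% of the α2δ signal in wild type and 37.9, 51.0 and 39.5% in Ythdf2-/- (57.2 ± 3.25% and 42.8 ± 7.17%). The α2δ class summed to 77.9 ± 4.95 CPM in wild type and 62.0 ± 9.95 CPM in Ythdf2-/-, and every wild-type library was above every Ythdf2-/- library. These shares and sums contain Cacna2d1 and are given as a description.

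In the γ family, Cacng7, Cacng5, Cacng4 and Cacng8 passed the filter, and all 4 encode TARPs. Cacng7 (γ7) was at 35.9, 28.7 and 51.5 CPM in wild type and 38.5, 42.8 and 28.3 CPM in Ythdf2-/-, a log2 fold change of -0.08 (SE 0.266). Cacng4 (γ4, a TARP of the developing brain) was at 17.6, 15.3 and 24.4 CPM against 24.8, 22.3 and 22.3 CPM. Its Ythdf2-/- libraries were close together (23.1 ± 1.46 CPM), and only wild-type replicate 3 reached their level. The log2 fold change of Cacng4 was 0.27 (SE 0.211) with all libraries and 0.49 (SE 0.139, unadjusted p = 0.0118, adjusted p = 0.213 by edgeR's quasi-likelihood test) without that replicate. With sample quality weights in limma-voom, Cacng4 and Cacna2d1 were the only channel genes past an adjusted p of 0.05 (log2 fold changes of 0.55 and -0.92, adjusted p = 0.0450 and 0.0395), in a fit where 4.82% of all genes passed and wild-type replicate 3 had a weight of 0.0901. At an unadjusted p that fit called 13 channel genes, 10 higher and 3 lower, against 29.9% of all genes (15.5% higher and 14.4% lower).

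Cacng5 (γ5) was at 26.5, 25.9 and 14.2 CPM in wild type and 28.3, 55.8 and 16.6 CPM in Ythdf2-/-. Cacng8 (γ8, the hippocampal TARP) was at 13.9, 14.6 and 1.46 CPM against 14.1, 6.96 and 27 CPM. Ythdf2-/- replicate 2 was the highest library for Cacng5 and Ythdf2-/- replicate 3 for Cacng8, and wild-type replicate 3 was the lowest for both. The log2 fold changes of 0.59 (SE 0.478) and 0.68 (SE 0.846) had an adjusted p of 0.999 each by edgeR's quasi-likelihood test. Without Ythdf2-/- replicate 2 that of Cacng5 was 0.02 (SE 0.393). That of Cacng8 was 0.07 (SE 0.945) without Ythdf2-/- replicate 3 and 0.17 (SE 0.521) without wild-type replicate 3. With a term for the presence of Y-linked reads, Cacng8 had a log2 fold change of 1.72 (SE 0.532, unadjusted p = 0.0188, adjusted p = 0.365 by edgeR's quasi-likelihood test). That fit called 3 of 27 channel genes at an unadjusted p, the other two being Cacna1c (-0.66) and Cacna2d1 (-0.62), against 11% of all genes (5.23% higher and 5.72% lower). Cacng6, Cacng7 and Cacng8 lie side by side on chromosome 7 (3332027 to 3435667), and Cacng1, Cacng4 and Cacng5 on chromosome 11. Of each trio, Cacng6 and Cacng1 stayed below the filter.

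Per length, auxiliary genes made up most of the channel signal. This signal includes the γ genes, whose tested members all encode TARPs, the partners of AMPA-type glutamate receptors. A share without the γ genes was not computed. Levels were set side by side as RPKM, which scales the reads of a gene to its length and to the library size, computed here from the counts with the gene lengths of the deposited expected-count tables. Cacng7 had the highest mean over the 6 libraries (45.5 RPKM, 34.2 to 62.2), and the means of Cacng4 and Cacnb3 were 21.5 and 13.1 RPKM. The γ values rest on lengths of 828 bp for Cacng7 and 984 bp for Cacng4, whereas the RefSeq exons span 2342 and 3649 bp. With the RefSeq lengths the means were 16.1 RPKM for Cacng7 and 5.79 RPKM for Cacng4. With the deposited lengths Cacng8 (8.94 RPKM), Cacng5 (7.49), Cacna2d1 (5.85), Cacnb1 (5.43), Scn8a (5.36) and Cacna1h (5.10) followed. Their ranges over the libraries overlapped, so the order of these 6 was within the spread. With the RefSeq length Cacnb1 was at 3.25 RPKM (3848 bp, against 2306 bp in the deposited tables), below Scn8a (5.27) and Cacna1h (5.07). Scn8a and Cacna1h were the highest pore-forming genes.

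The auxiliary share of all channel reads was 62.6, 61.3 and 52.2% in wild type and 60.8, 61.9 and 55.8% in Ythdf2-/-. The means were 58.7 ± 5.64% and 59.5 ± 3.27% (SD, n = 3), and the groups overlapped. Per kilobase, with the γ genes counted, the shares were 87.4 ± 1.77% and 87.8 ± 1.71%, and with RefSeq lengths 81.3 ± 4.31% and 82.3 ± 2.14%. The 40 genes together summed to 461.0 ± 48.8 CPM in wild type and 473.0 ± 19.2 CPM in Ythdf2-/-. The pore-forming genes summed to 166.0, 163.0 and 246.0 CPM against 177.0, 186.0 and 212.0 CPM. By class, the γ genes were the only one in which every Ythdf2-/- sum (106.0, 128.0 and 95.7 CPM) was above every wild-type sum (94.3, 85.3 and 91.9 CPM), and the α2δ genes the only one with the opposite order. Sums over chosen genes were not tested.

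**Figure D5:**
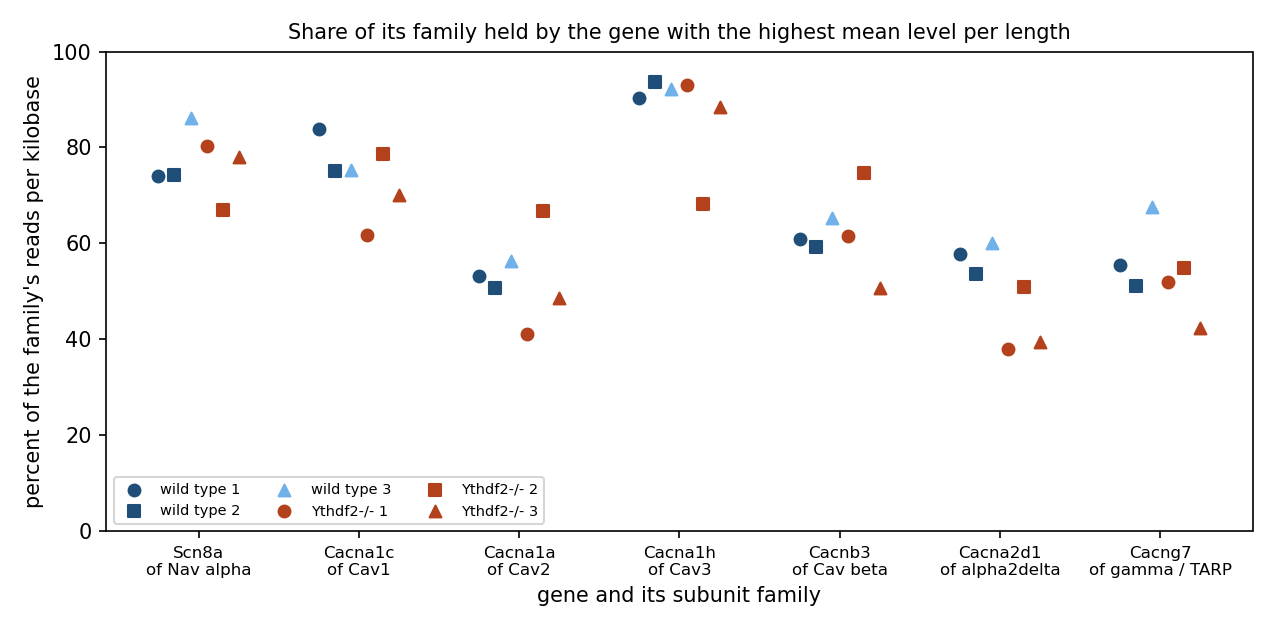
Share of the signal of 7 subunit families, in percent of reads per kilobase, held by the gene with the highest mean level of each (the vertical axis runs from 0 to 100%). Each symbol is 1 input library. Cacna1h drops to 68.3% in Ythdf2-/- replicate 2, and Cacna2d1 is lower in each Ythdf2-/- library (37.9 to 51.0%) than in each wild-type library (53.6 to 60%).

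The 5-letter sequence GGACT, a common context of m6A, was searched on the transcript strand of the longest coding transcript of each gene (GENCODE M21). It was present in 39 of the 40 channel genes and in 93.4% of 12288 genes tested that had such a transcript. The median density was 1.07 per kb over the channel genes tested and 1.04 per kb over all genes, with 1.09 for the pore-forming and 0.934 for the auxiliary genes. Cacna2d1 held 4 copies in 7436 bases (0.538 per kb), and Cacnb3 held 9 in 2734 bases (3.29 per kb), the highest density of the 40. Cacng1 held none. A match is a description of the sequence and not a measured m6A site.

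Genes that act with these channels were followed as lists. No gene of any list passed an adjusted p of 0.05 by edgeR's quasi-likelihood test, in which no gene at all did. Among 12 sodium channel partners (ankyrins, FGF homologous factors, contactins, Nedd4-type ligases), 3 had a log2 fold change above 0 and 9 below, with a median of -0.15. Without wild-type replicate 3 the same list had 8 above 0 and 4 below, with a median of 0.13. At an unadjusted p under 0.05 the count was 0 of 12 in either fit, against 3.63% and 16.6% of all genes. The most abundant were the ubiquitin ligase Nedd4 (1296 ± 58.5 against 1213 ± 232.0 CPM), the ankyrin Ank2 (1008 ± 77.1 against 1261 ± 651.0 CPM) and the contactin Cntn1 (334.0 ± 72.2 against 344.0 ± 75.6 CPM). Among 18 calcium channel partners tested, 9 were above 0 and 9 below (median 0.01), or 11 and 7 (median 0.18) without wild-type replicate 3, and among its most abundant members the calmodulin genes Calm2 and Calm3 had log2 fold changes of -0.19 and 0.06. The related cation channels outside the rule had 3 above 0 and 5 below (median -0.15, and 0.41 with all 8 above 0 without wild-type replicate 3), led by the endolysosomal channel gene Tpcn1 (-0.14), the NALCN complex gene Unc79 (0.28) and Nalcn itself (-0.89).

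Of 13 genes of calcium store release and entry, 8 were above 0 and 5 below (median 0.03), against 3 above and 10 below (median -0.18) without Ythdf2-/- replicate 3. The most abundant were the pump genes Atp2a2 (-0.14) and Atp2b1 (0.10) and the IP3 receptor gene Itpr2 (-0.41). Without wild-type replicate 3 their log2 fold changes were -0.14, -0.01 and 0.13. At an unadjusted p under 0.05 the list held 2 of 13 genes, Orai1 and Orai2, against 3.63% of all genes, and the groups did not overlap for either, against 10.2% of all genes. The count was 0 of 13 without wild-type replicate 1 or 2 (2.82 and 2.66% of all genes called). It was also 0 of 13 without Ythdf2-/- replicate 1 or 3 (1.85 and 2.13% of all genes). These store-operated channel genes were named after their values were seen. Orai1 was at 13.9, 14.3 and 13.6 CPM in wild type and 20.0, 17.0 and 23.4 CPM in Ythdf2-/- (unadjusted p = 0.0248, adjusted p = 0.999 by edgeR's quasi-likelihood test). Orai2 was at 6.93, 7.40 and 7.5 CPM against 4.01, 5.55 and 4.67 CPM (unadjusted p = 0.0350, adjusted p = 0.999 by the same test). The groups overlapped for Orai3, the other gene of this family, with a log2 fold change of 0.10 (SE 0.196). Of the 7 genes of the REST repressor complex, which silences neuronal channel genes outside neurons, 1 was above 0 and 6 below (median -0.05). The count was 4 above and 3 below without wild-type replicate 3 (median 0.00), and likewise without wild-type replicate 1 (median 0.03). Rest was at 17.6, 18.9 and 28.0 CPM against 22.6, 23.9 and 26.1 CPM, and the most abundant members Hdac2, Hdac1 and Sin3a had log2 fold changes of -0.09, -0.16 and -0.01.

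Wild-type replicate 3 had the highest summed level of neuron, astroglia, oligodendrocyte lineage and mesenchymal markers. Its sums of progenitor and endothelial markers were the lowest, although most progenitor markers were singly at their highest there. The median log2 fold changes with all libraries and without that library were -0.33 and 0.14 for 13 neuron markers, 0.03 and 0.18 for 8 astroglia markers, -2.63 and -0.30 for 12 oligodendrocyte lineage markers, and -0.09 and -0.11 for 8 progenitor markers. Microglia, endothelial and mesenchymal markers summed to 1.13 to 1.55, 0.915 to 2.21 and 1.11 to 32.7 CPM, the last value being wild-type replicate 3. The part of these cell types in the channel values was not tested.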

How the data were processed

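Input RNA-seq libraries of neurospheres were analysed, 3 of each genotype, grouped by the sample labels; the 6 m6A-IP samples were not analysed here. The authors deposited raw counts of reads per gene without normalization, made with featureCounts according to the submitters' processing notes, which also list Bowtie2 2.2.9 and RSEM 1.2.15. The study's methods name TopHat, mm10 and Cuffnorm. The strand setting and the handling of multi-mapping reads are not given in the sources used here, although the kit keeps strand. The authors also deposited expected counts and FPKM per gene; their expected counts summed to 1.97 to 2.40% of the raw counts, so FPKM served only in an alternative, as log2(FPKM + 1), which understates changes of low genes. The gene lengths of those deposited tables gave RPKM.

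Genes passing filterByExpr (13112) were tested with edgeR 4.0.16 in R 4.3.3 (TMM, glmQLFit with the robust option, glmQLFTest, genotype as the only term, Benjamini-Hochberg adjustment over all of them). CPM used TMM-scaled library sizes. The common biological coefficient of variation was 0.332. Alternatives were DESeq2 1.42.0, its size factors in edgeR, limma-voom 3.58.1 with and without quality weights, other filters, a block for the replicate number, a term for Y-linked reads, leaving out each library and FPKM. The code was tested on simulated counts. Positions are RefSeq GRCm38.p6, and sequences are GENCODE M21. The longest reading frame of a coding transcript was used for codons. Genes with a mean of at least 1 CPM are given in every library, the others by count and range. Of each partner list the 3 most abundant genes and Rest are named. A few genes that these rules select entered the fits, counts and sums but are not reported here by name. Genes and lists were chosen with earlier results of these data known. The study calls the replicates biological; nothing says that equal numbers share a litter or day. The deviations of same-numbered libraries from their group means correlated at -0.248, -0.244 and -0.394, so the numbers were not used as pairs.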

Additional observations from a re-analysis of the deposited data

How the results depend on the processing

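No channel gene passed an adjusted p of 0.05 under the alternatives run except limma-voom with sample quality weights, where 2 did, both auxiliary (Cacna2d1 and Cacng4). At an unadjusted p under 0.05 the main count was 1 (0 pore-forming, 1 auxiliary), where 3.63% of all genes passed. It was 2 (1 pore-forming) with DESeq2 (4.27% of all genes), 13 (5 and 8) with quality weights (29.9%), 3 (1 and 2) with the Y-linked term (11%) and 0 with log2(FPKM + 1) values (4.38%). The FPKM fit covered 13 of the 40 channel genes, without Cacna2d1 and Cacng4, and the median of all genes in it was 0.11. Leaving out 1 library gave 0 to 5 channel genes, 0 to 1 pore-forming and 0 to 4 auxiliary (0 without wild-type replicate 1, with 2.82% of all genes called, and 5 without wild-type replicate 3, with 16.6%). The share of all genes called was 1.85 to 4.14% without any other library. The median log2 fold change ranged from 0.03 to 0.36 over these fits, from -0.10 to 0.42 for pore-forming and from 0.07 to 0.28 for auxiliary genes, and was 0.26 for pore-forming genes with quality weights.

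Leaving out 1 library also turned the sign of single genes, all within -0.97 to 1.15. The log2 fold change ranged from -0.97 to 0.75 for Scn3a, -0.13 to 0.75 for Scn7a, -0.31 to 0.42 for Scn8a, -0.77 to 0.08 for Scn1a, -0.27 to 0.55 for Cacna1d, -0.36 to 0.09 for Cacna1e, -0.21 to 0.13 for Cacna1h, -0.05 to 1.15 for Scn2b, -0.13 to 0.60 for Cacnb1, -0.09 to 0.37 for Cacnb2, -0.14 to 0.56 for Cacnb3, -0.26 to 0.20 for Cacna2d3 and -0.26 to 0.18 for Cacng7.

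The replicate block gave 0 channel genes at an unadjusted p (0 auxiliary), against 1.4% of all genes, and a log2 fold change of 0.01 for Scn8a. Nothing says that equal replicate numbers pair the samples. Other signs turned in single genes. With limma-voom Scn3a was at 0.00 and Scn8a at 0.02. With quality weights Scn1a was at 0.47, Scn3a at 0.39, Scn7a at -0.71, Scn8a at 0.44, Cacna1e at 0.26, Cacnb2 at -0.04, Cacna2d3 at -0.47 and Cacng7 at 0.21. With the Y-linked term Cacna1d was at -0.09, Cacna1h at 0.13 and Cacnb3 at -0.12. With FPKM Cacna1c was at 0.30, Scn3b at -0.67, Cacnb4 at 0.17, Cacna2d2 at -0.09 and Cacng7 at 1.43. Among the lists, an adjusted p under 0.05 was reached by 2 neuron, 1 oligodendrocyte lineage, 1 progenitor and 2 calcium store genes with quality weights (4.82% of all genes), 1 astroglia and 1 oligodendrocyte lineage gene with the Y-linked term (0.0991%), and 1 progenitor gene with DESeq2 (0.236%). Per kilobase in place of reads, the auxiliary share was 87.4% in wild type and 87.8% in Ythdf2-/-. The cause of these shifts was not tested.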
